A study of Homo sapiens with 36 samples.

Results

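The 39 genes described here encode proteins that copy the nuclear DNA: 11 genes of origin licensing, 6 of helicase activation, 8 of the polymerases and primase, 7 of the clamp, the clamp loader and strand joining, 3 of single-strand binding, 3 of nucleotide supply and 1 of chromatin assembly. They were taken from a list of gene names by role. The rule itself uses no measured value, but the members were chosen with earlier results of these data known. Each gene was represented by 1 probe, the one with the highest mean signal, and all 39 were among the 14678 genes that passed the detection filter.

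RNA from 2 human cell lines was measured on 36 Illumina bead arrays, 18 per line. BEAS-2B is an immortalised bronchial epithelial line that carries SV40 sequences, and HCT116 is a colorectal carcinoma line. Both were grown in DMEM, and the copper groups had CuSO4 in the medium: 800 µM for BEAS-2B, 1400 µM for HCT116. Each line had 10 copper arrays, a pair at each of 2, 4, 6, 12 and 18 h, and 8 untreated arrays, a pair at 0 h and at 6 h and a single array at 2, 4, 12 and 18 h. Whether arrays of 1 group stem from separate cultures is not stated in the labels; the p-values below then measure the spread between these arrays, which may be technical. The dose differed between the lines, so line and dose cannot be told apart in any comparison of the lines.

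DNA replication is prepared in G1, when ORC, CDC6 and CDT1 load the ring of MCM2 to MCM7 onto origins as an inactive helicase, and geminin (GMNN) later blocks CDT1 so that each origin fires once per cycle. At the start of S phase CDC45 and the GINS complex turn the ring into a working helicase, polymerase alpha and primase lay down primers, and polymerases delta and epsilon extend them while held by the PCNA clamp. Most of these genes are known to be transcribed in proliferating cells under E2F factors, and their RNA falls when cells leave the cycle.

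The labelled cell types were set against marker lists on the untreated arrays. Of 12 colon epithelial markers, 5 were detected on all 8 untreated HCT116 arrays and 3 on all 8 of BEAS-2B, with CDH1 and CDX2 on all 8 in HCT116 and on 0 and 1 of 8 in BEAS-2B. VIL1, CDX1, CEACAM5, CEACAM6 and CDH17 were detected on none of the 8 untreated arrays of either line. Of 10 mesenchymal and airway basal markers with probes, 7 were detected on all 8 untreated BEAS-2B arrays, COL1A1, FN1 and THY1 among them, and 3 on all 8 of HCT116, while the basal keratins KRT5 and KRT14 were detected on none in either. Of 5 leukocyte markers with probes, 2 were detected on all 8 untreated BEAS-2B arrays (CD68 and CD14) and 1 on all 8 of HCT116 (CD68). LYZ was detected on 2 of 8 in BEAS-2B and 6 of 8 in HCT116, CD14 on 2 of 8 in HCT116, PTPRC on 1 of 8 in each line, and CD3E on 0 of 8 in each. The share of probes detected per array ranged from 41.4% to 43.2% in untreated BEAS-2B and from 39.6% to 42.4% in untreated HCT116. It was lower at 12 and 18 h of copper, at 36.2% to 37.9% in BEAS-2B and 32.2% to 35.6% in HCT116, and the part of this in the results below was not tested.

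Most of the replication genes were lower in copper in both lines. Averaged over the 5 times, each against untreated arrays of the same time, 30 of the 39 were lower in BEAS-2B, 1 was higher and 8 did not pass the test, where 30.3% of all genes were called lower and 18.5% higher. In HCT116, 26 were lower, 4 were higher and 9 did not pass, against 29.1% and 17.3% of all genes. The median log2 difference of the 39 was -0.58 in BEAS-2B and -0.48 in HCT116, while the median of all genes was -0.04 in each. By the mean of the 2 lines the largest falls were in FEN1, the nuclease that trims Okazaki fragments (-1.54 ± 0.05 in BEAS-2B and -1.66 ± 0.05 in HCT116), and in the helicase genes GINS3 (-1.95 ± 0.07 and -1.29 ± 0.07) and MCM10 (-1.66 ± 0.08 and -1.69 ± 0.08). These are log2 differences with their standard errors from 1 limma model of all 36 arrays, and each average rests on 10 copper and 6 untreated arrays. A call is an adjusted p below 0.05 (Benjamini-Hochberg over all 14678 genes, two-sided). On arrays of whole cultures, fewer cells in the cycle and less RNA per cell cannot be told apart.

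In both lines the same 25 genes were called lower, where 20.3% of all genes were. Another 5 passed as lower in BEAS-2B and did not pass in HCT116, namely ORC1, CDC45, GINS1, POLE and LIG1, and 1, MCM7, passed as lower in HCT116 and not in BEAS-2B. CDC6, PRIM2 and RFC2 passed in neither. The riser in BEAS-2B was RRM2, and the 4 in HCT116 were ORC6, GINS4, POLA1 and POLD1. Of the members called in only 1 line, ORC1 and CDC45 alone had a called difference between the lines' averages. GINS4, called in HCT116 only, averaged 0.20 in BEAS-2B and 0.22 in HCT116. No member was called higher in both lines or called in opposite directions, but against the 0 h arrays CDC45 was called higher in HCT116, at 0.25 (adjusted p = 0.013, with 0.013 to 1 over 43 alternative settings), and lower in BEAS-2B. Each HCT116 riser lost its call when 1 of several times was left out: ORC6 without 4, 6 or 18 h, GINS4 without 12 or 18 h, POLA1 without 2, 4 or 12 h, and POLD1 without 6, 12 or 18 h. GINS4 was then 0.040 and 0.029, and POLD1 0.087 without 12 h. Of the 5 that passed as lower in BEAS-2B and not in HCT116, POLE was -0.036 and LIG1 -0.19 without the 18 h arrays, neither past the test, and the MCM7 fall in HCT116 was -0.15 and did not pass against the 0 h arrays. Across the 39 members the averages of the 2 lines had a Pearson correlation of 0.887 and a Spearman correlation of 0.917, as a description over genes measured on the same arrays; over all genes Pearson's value was 0.699.

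**Figure D1:**
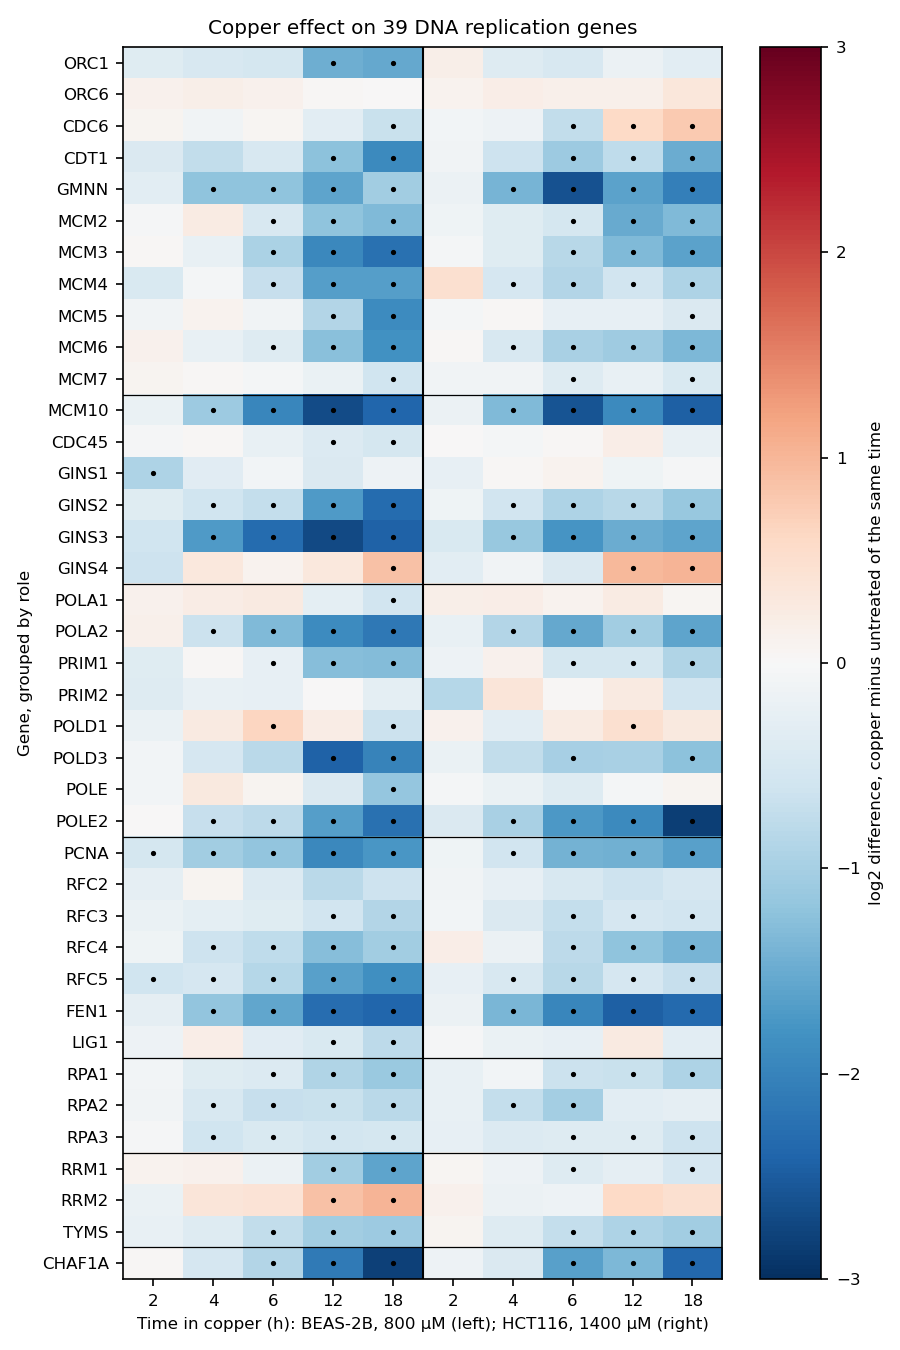
Log2 difference of copper from untreated arrays of the same time for each of the 39 genes (rows, ordered by role) at 2, 4, 6, 12 and 18 h in BEAS-2B and HCT116 (columns), on a colour scale with lower values in blue and higher values in red and a dot where the test was passed. The rows of MCM10, GINS3 and FEN1 are below -1 from 4 h on in both lines, while RRM2 in BEAS-2B and GINS4 in both lines are above 0 at 12 and 18 h.

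The promoters of these genes are shown because E2F and CCAAT letters are known from them. In RefSeq's annotation of GRCh38.p14, 33 of the 39 genes had at least 1 promoter window of 300 bases. Each spanned 250 before and 50 after a transcription start. GINS4, MCM4, MCM5, POLD3, RPA2 and RPA3 had no entry in the table used. GMNN, PRIM2, POLD1, PCNA and RRM2 had 2 windows each, and MCM7 and CDC45 had 3. A gene counted as holding letters where any of its windows did. For GMNN, PCNA and RRM2 only 1 of the 2 is printed below. The E2F letters searched were TTTCCCGC, TTTCGCGC, TTTGCCGC and TTTGGCGC on either strand, and 18 of 33 genes (54.5%) held at least 1, compared with 3.99% of all 27305 genes with a window. The letters CCAAT, also on either strand, were in 20 of 33 (60.6%) against 39.7% of all genes, and the letters TTTGAA in 1 of 33 (3.03%), RRM1, against 18.2%. Overlaps between the motifs were not removed, and a match is a description of letters only. The 150 bases before the start are printed 5′ to 3′ for 4 genes that fell in both lines and for the BEAS-2B riser RRM2. The 4 (GMNN, PCNA, POLA2 and GINS2) were picked from the members with E2F letters wholly within these 150 bases. Among those members they had the lowest means of the 2 lines' averages. Capitals mark the E2F letters and CCAAT, or ATTGG where it is read on the other strand.
GMNN, chr6:24775263-24775412, plus strand: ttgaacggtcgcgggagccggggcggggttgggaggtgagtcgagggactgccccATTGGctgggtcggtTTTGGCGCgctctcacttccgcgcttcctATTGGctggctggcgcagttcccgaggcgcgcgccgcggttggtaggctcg
PCNA, chr20:5126623-5126772, minus strand: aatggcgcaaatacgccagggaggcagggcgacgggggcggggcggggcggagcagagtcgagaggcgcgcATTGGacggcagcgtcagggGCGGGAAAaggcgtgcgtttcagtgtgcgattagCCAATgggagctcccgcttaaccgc
POLA2, chr11:65261812-65261961, plus strand: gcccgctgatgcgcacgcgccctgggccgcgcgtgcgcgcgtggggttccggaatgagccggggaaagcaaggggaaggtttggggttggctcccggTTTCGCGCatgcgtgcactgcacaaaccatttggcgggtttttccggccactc
GINS2, chr16:85688955-85689104, minus strand: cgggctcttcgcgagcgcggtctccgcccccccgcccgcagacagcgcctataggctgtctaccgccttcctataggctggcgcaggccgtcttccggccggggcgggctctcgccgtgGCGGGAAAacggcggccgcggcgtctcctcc
RRM2, chr2:10122589-10122738, plus strand: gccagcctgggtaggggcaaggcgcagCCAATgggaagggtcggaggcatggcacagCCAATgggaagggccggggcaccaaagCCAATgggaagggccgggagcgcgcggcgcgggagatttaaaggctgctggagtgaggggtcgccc

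GMNN, PCNA, POLA2 and GINS2 each hold 1 E2F run in these stretches, and RRM2 holds none but has 3 CCAAT runs. Holding E2F letters was the rule by which those genes were picked, so their contrast with RRM2 was set in advance. Of all genes, 30.3% were called lower in BEAS-2B and 29.1% in HCT116. Among the 18 genes with E2F letters in any window, 15 were called lower in BEAS-2B and 13 in HCT116, with median differences of -0.70 and -0.74. Among the 15 without them, 10 and 8 were called lower, with medians of -0.57 and -0.39; no test was made of this split. FEN1, MCM10 and CHAF1A are among the genes without these letters that fell in both lines, and POLA1 is among those with them whose average was called lower in neither line.

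Of the 11 licensing genes, 8 were lower in BEAS-2B (30.3% of all genes were) and 8 in HCT116 (29.1%). In the other direction, 0 (18.5%) and 1 (17.3%) were higher. Geminin, the inhibitor of CDT1, fell most in this group. GMNN in BEAS-2B lay between 9.85 and 10.18 on the 8 untreated arrays (median 10.01) and, in copper, at 9.62 and 9.56 at 2 h, 8.91 and 8.93 at 4 h, 8.69 and 8.64 at 6 h, 8.39 and 8.61 at 12 h and 8.93 and 8.88 at 18 h. GMNN in HCT116 lay between 9.77 and 10.19 on the 8 untreated arrays (median 9.96) and, in copper, at 9.71 and 9.73 at 2 h, 8.55 and 8.60 at 4 h, 7.38 and 7.52 at 6 h, 8.38 and 8.29 at 12 h and 7.86 and 7.57 at 18 h. Both copper arrays were below all 8 untreated arrays at every time in each line, and the HCT116 pair was lowest at 6 h. GMNN averaged -1.07 ± 0.06 in BEAS-2B and -1.57 ± 0.06 in HCT116 (adjusted p = 4.7e-11 and 3e-13). MCM3, a subunit of the helicase ring, was first called lower at 6 h, after GMNN at 4 h. MCM3 in BEAS-2B lay between 12.02 and 12.56 on the 8 untreated arrays (median 12.38) and, in copper, at 12.29 and 12.23 at 2 h, 11.80 and 11.81 at 4 h, 11.19 and 11.43 at 6 h, 10.56 and 10.59 at 12 h and 10.27 and 10.32 at 18 h. MCM3 in HCT116 lay between 12.53 and 12.92 on the 8 untreated arrays (median 12.68) and, in copper, at 12.56 and 12.55 at 2 h, 12.30 and 12.42 at 4 h, 11.86 and 11.99 at 6 h, 11.54 and 11.65 at 12 h and 11.20 and 10.87 at 18 h. The 2 h arrays overlapped the untreated ones in both lines, and all later copper arrays were below them. MCM3 averaged -1.06 ± 0.06 in BEAS-2B and -0.83 ± 0.06 in HCT116 (adjusted p = 6.2e-11 and 1.9e-09).

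MCM4 and MCM5, both ring subunits, had lower averages in BEAS-2B than in HCT116, by an amount that rested on the reference and on the late arrays. MCM4 in BEAS-2B lay between 10.49 and 11.29 on the 8 untreated arrays (median 10.93) and, in copper, at 10.43 and 10.53 at 2 h, 10.40 and 10.67 at 4 h, 10.29 and 10.33 at 6 h, 9.65 and 9.64 at 12 h and 9.56 and 9.48 at 18 h. MCM4 in HCT116 lay between 10.45 and 10.91 on the 8 untreated arrays (median 10.81) and, in copper, at 10.94 and 10.92 at 2 h, 10.54 and 10.28 at 4 h, 10.00 and 9.92 at 6 h, 10.15 and 10.00 at 12 h and 9.91 and 10.05 at 18 h. Copper arrays of both lines were below all untreated arrays at 6, 12 and 18 h, and at 2 h the HCT116 pair was above all 8. MCM4 averaged -0.90 ± 0.07 in BEAS-2B and -0.48 ± 0.07 in HCT116 (adjusted p = 1.7e-09 and 5.8e-06). MCM5 in BEAS-2B lay between 9.12 and 9.61 on the 8 untreated arrays (median 9.32) and, in copper, at 9.13 and 9.12 at 2 h, 9.23 and 9.21 at 4 h, 9.44 and 9.19 at 6 h, 8.47 and 8.50 at 12 h and 7.73 and 7.70 at 18 h. MCM5 in HCT116 lay between 9.71 and 10.01 on the 8 untreated arrays (median 9.92) and, in copper, at 9.86 and 9.88 at 2 h, 9.80 and 9.69 at 4 h, 9.81 and 9.56 at 6 h, 9.79 and 9.76 at 12 h and 9.42 and 9.49 at 18 h. It was clear of the untreated range at 12 and 18 h in BEAS-2B and at 18 h alone in HCT116. MCM5 averaged -0.58 ± 0.06 in BEAS-2B and -0.19 ± 0.06 in HCT116 (adjusted p = 1.9e-07 and 0.014); the HCT116 call was lost when replicate number was a block (adjusted p = 0.052, with 0.0052 to 0.15 over the 43 settings) or the 6 h or 18 h arrays were left out. The difference between the lines in MCM4, 0.42, was 0.041 against the 0 h arrays and 0.26 without the 12 h arrays, and that in MCM5, 0.39, was 0.27 against the 0 h arrays and 0.12 without the 18 h arrays; none of these 4 values passed the test.

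ORC6, a subunit of the origin recognition complex, was among the HCT116 risers. ORC6 in BEAS-2B lay between 13.88 and 14.10 on the 8 untreated arrays (median 14.01) and, in copper, at 14.22 and 14.08 at 2 h, 14.25 and 14.17 at 4 h, 14.06 and 14.06 at 6 h, 13.99 and 14.04 at 12 h and 14.07 and 14.05 at 18 h. ORC6 in HCT116 lay between 13.25 and 13.72 on the 8 untreated arrays (median 13.52) and, in copper, at 13.71 and 13.91 at 2 h, 13.75 and 13.70 at 4 h, 13.72 and 13.64 at 6 h, 13.38 and 13.40 at 12 h and 13.60 and 14.10 at 18 h. The HCT116 copper arrays overlapped the untreated range at all 5 times, and the BEAS-2B pair was above it at 4 h alone. ORC6 averaged 0.10 ± 0.07 in BEAS-2B and 0.18 ± 0.07 in HCT116 (adjusted p = 0.25 and 0.032), and the HCT116 call was lost when each line was fitted alone (adjusted p = 0.11, with 0.0012 to 0.26 over the 43 settings). Among the other ring subunits, MCM2 averaged -0.56 ± 0.08 in BEAS-2B and -0.77 ± 0.08 in HCT116, and MCM6 -0.71 ± 0.05 and -0.77 ± 0.05. MCM7 was at -0.15 ± 0.06 (adjusted p = 0.055) and -0.26 ± 0.06 (adjusted p = 0.002). CDT1, the loader that geminin blocks, fell by 0.96 in BEAS-2B and by 0.81 in HCT116 on the log2 scale. ORC1, which binds origin DNA, averaged -0.87 ± 0.15 in BEAS-2B, where 8 of 10 copper arrays detected it, and -0.23 ± 0.15 in HCT116 (adjusted p = 0.24). CDC6, the other loading factor, went both ways in HCT116, from -0.74 at 6 h to 0.61 at 12 h and 0.79 at 18 h, all past the test, and in BEAS-2B it was -0.66 at 18 h.

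Of the 6 genes of helicase activation, 5 were lower in BEAS-2B (30.3% of all genes were) and 3 in HCT116 (29.1%). In the other direction, 0 (18.5%) and 1 (17.3%) were higher. MCM10, which helps the loaded ring start unwinding, and GINS3, a subunit of the 4-part GINS complex, had the deepest falls. MCM10 in BEAS-2B lay between 9.55 and 9.98 on the 8 untreated arrays (median 9.73) and, in copper, at 9.41 and 9.35 at 2 h, 8.59 and 8.60 at 4 h, 7.70 and 7.58 at 6 h, 7.24 and 7.05 at 12 h and 7.41 and 7.59 at 18 h. MCM10 in HCT116 lay between 9.76 and 10.54 on the 8 untreated arrays (median 10.44) and, in copper, at 10.55 and 10.09 at 2 h, 9.26 and 9.00 at 4 h, 7.85 and 7.86 at 6 h, 7.89 and 7.89 at 12 h and 7.16 and 7.45 at 18 h. All BEAS-2B copper arrays were below all untreated ones, and in HCT116 all but those at 2 h were. MCM10 averaged -1.66 ± 0.08 in BEAS-2B and -1.69 ± 0.08 in HCT116 (adjusted p = 3.9e-12 and 3.4e-12). GINS3 in BEAS-2B lay between 8.89 and 9.21 on the 8 untreated arrays (median 9.07) and, in copper, at 8.54 and 8.50 at 2 h, 7.44 and 7.45 at 4 h, 6.88 and 6.66 at 6 h, 6.41 and 6.34 at 12 h and 6.88 and 6.40 at 18 h. GINS3 in HCT116 lay between 9.19 and 9.90 on the 8 untreated arrays (median 9.63) and, in copper, at 9.54 and 9.33 at 2 h, 8.49 and 8.48 at 4 h, 8.01 and 7.91 at 6 h, 7.96 and 7.82 at 12 h and 7.60 and 7.61 at 18 h. As for MCM10, every BEAS-2B copper array was below the untreated range and the 2 h pair of HCT116 overlapped it. GINS3 averaged -1.95 ± 0.07 in BEAS-2B and -1.29 ± 0.07 in HCT116 (adjusted p = 1.7e-13 and 6.6e-11), and 1 of its 10 BEAS-2B copper arrays, at 18 h, did not detect it.

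GINS4, another subunit of the same complex, rose late while GINS2 and GINS3 fell. GINS4 in BEAS-2B lay between 6.64 and 7.37 on the 8 untreated arrays (median 7.16) and, in copper, at 6.51 and 6.57 at 2 h, 7.33 and 7.45 at 4 h, 7.41 and 7.36 at 6 h, 7.59 and 7.71 at 12 h and 8.07 and 8.00 at 18 h. GINS4 in HCT116 lay between 6.37 and 7.05 on the 8 untreated arrays (median 6.89) and, in copper, at 6.76 and 6.45 at 2 h, 6.55 and 6.29 at 4 h, 6.49 and 6.05 at 6 h, 7.44 and 7.22 at 12 h and 7.90 and 7.93 at 18 h. Both lines had the copper pairs above all 8 untreated arrays at 12 and 18 h, and BEAS-2B had them below at 2 h. GINS4 averaged 0.20 ± 0.09 in BEAS-2B and 0.22 ± 0.09 in HCT116 (adjusted p = 0.067 and 0.043). At 18 h its difference was 0.87 ± 0.20 in BEAS-2B and 1.01 ± 0.20 in HCT116, both past the test, and its HCT116 average was lost when each line was fitted alone (adjusted p = 0.11, with 0.0039 to 0.87 over the 43 settings) and was -0.07 against the 0 h arrays. GINS2 averaged -1.14 ± 0.06 in BEAS-2B and -0.72 ± 0.06 in HCT116. CDC45, the third part of the active helicase, averaged -0.23 ± 0.05 and -0.01 ± 0.05, and the HCT116 value did not pass (adjusted p = 0.93). GINS1 was near background: 3 of 8 untreated arrays detected it in each line, and 2 of 10 copper arrays did in BEAS-2B and 0 of 10 in HCT116. Its called BEAS-2B average, -0.38 ± 0.09, was -0.03 against the 0 h arrays (adjusted p = 0.89, with 0.00056 to 0.89 over 42 settings). At 2 h in BEAS-2B, where neither copper array detected GINS1, it was at least 1.89-fold lower than the 1 untreated array of that time; the bound sets that array against the lowest signal among detected probes of each copper array, or the probe's own signal where that was higher. That untreated array, at 5.67, was the highest of the 8, and the copper arrays, at 4.76 and 4.74, lay within the untreated range.

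Of the 8 polymerase and primase genes, 5 were lower in BEAS-2B (30.3% of all genes were) and 4 in HCT116 (29.1%). In the other direction, 0 (18.5%) and 2 (17.3%) were higher, and so few genes cannot be told from those shares. Subunits of 1 enzyme had unlike averages, though differences between genes were not tested. POLA2, the accessory subunit of polymerase alpha, fell on average in both lines, and the average of POLA1, its catalytic subunit, was called lower in neither. POLA2 in BEAS-2B lay between 9.83 and 10.28 on the 8 untreated arrays (median 10.15) and, in copper, at 10.01 and 9.95 at 2 h, 9.41 and 9.44 at 4 h, 8.76 and 8.97 at 6 h, 8.26 and 8.48 at 12 h and 8.10 and 7.92 at 18 h. POLA2 in HCT116 lay between 8.05 and 9.09 on the 8 untreated arrays (median 8.25) and, in copper, at 7.80 and 7.96 at 2 h, 7.02 and 7.33 at 4 h, 6.85 and 6.54 at 6 h, 7.86 and 7.87 at 12 h and 7.35 and 7.65 at 18 h. The copper arrays were below the whole untreated range from 4 h in BEAS-2B and from 2 h in HCT116. POLA2 averaged -1.17 ± 0.08 in BEAS-2B and -1.06 ± 0.08 in HCT116 (adjusted p = 4.1e-10 and 1.8e-09). Its untreated HCT116 arrays at 12 and 18 h were higher than the earlier ones, as given below, and this shift is part of the HCT116 average. POLA1 in BEAS-2B lay between 9.12 and 9.47 on the 8 untreated arrays (median 9.26) and, in copper, at 9.35 and 9.25 at 2 h, 9.31 and 9.38 at 4 h, 9.43 and 9.42 at 6 h, 9.15 and 9.21 at 12 h and 8.84 and 8.81 at 18 h. POLA1 in HCT116 lay between 8.85 and 9.45 on the 8 untreated arrays (median 9.05) and, in copper, at 9.15 and 8.95 at 2 h, 9.23 and 9.10 at 4 h, 9.12 and 9.22 at 6 h, 9.76 and 9.62 at 12 h and 9.43 and 9.57 at 18 h. These overlapped the untreated arrays at all times but 18 h in BEAS-2B, where they were below, and 12 h in HCT116, where they were above. POLA1 averaged -0.05 ± 0.06 in BEAS-2B and 0.15 ± 0.06 in HCT116 (adjusted p = 0.55 and 0.032), with the HCT116 call lost when each line was fitted alone (adjusted p = 0.11, the highest over the 43 settings, with 0.0014 the lowest).

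In polymerase epsilon, POLE2 is a small subunit and POLE the catalytic one. POLE2 in BEAS-2B lay between 8.90 and 9.36 on the 8 untreated arrays (median 9.14) and, in copper, at 8.89 and 8.91 at 2 h, 8.46 and 8.38 at 4 h, 8.23 and 8.10 at 6 h, 7.81 and 7.62 at 12 h and 6.93 and 7.19 at 18 h. POLE2 in HCT116 lay between 9.33 and 9.97 on the 8 untreated arrays (median 9.76) and, in copper, at 9.61 and 9.48 at 2 h, 8.61 and 8.74 at 4 h, 8.03 and 8.07 at 6 h, 7.59 and 7.25 at 12 h and 7.01 and 6.73 at 18 h. Its copper arrays were below all untreated ones from 4 h in each line and lowest at 18 h in HCT116. POLE2 averaged -1.07 ± 0.07 in BEAS-2B and -1.57 ± 0.07 in HCT116 (adjusted p = 3.3e-10 and 2.2e-12). POLE averaged -0.26 ± 0.10 in BEAS-2B and -0.13 ± 0.10 in HCT116 (adjusted p = 0.046 and 0.35), and its BEAS-2B call was lost in 15 of 28 fits that left out 1 array. For polymerase delta, POLD3, an accessory subunit, averaged -1.16 ± 0.17 in BEAS-2B and -0.83 ± 0.17 in HCT116. Neither copper array detected POLD3 at 12 h in BEAS-2B. By the same bound it was at least 5.35-fold lower than the 1 untreated array of that time. That untreated array, at 7.15, was the highest of the 8, so the bound holds against that array alone. POLD1, the catalytic subunit, was called higher at 6 h and lower at 18 h in BEAS-2B.

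POLD1 in BEAS-2B lay between 7.86 and 8.31 on the 8 untreated arrays (median 8.03) and, in copper, at 7.93 and 8.06 at 2 h, 8.05 and 8.24 at 4 h, 8.60 and 8.45 at 6 h, 8.33 and 8.29 at 12 h and 7.63 and 7.72 at 18 h. POLD1 in HCT116 lay between 7.32 and 7.84 on the 8 untreated arrays (median 7.48) and, in copper, at 7.52 and 7.39 at 2 h, 7.25 and 7.38 at 4 h, 7.75 and 7.68 at 6 h, 8.28 and 8.35 at 12 h and 8.21 and 8.08 at 18 h. The BEAS-2B pair was above all untreated arrays at 6 h and below them at 18 h, and the HCT116 pairs were above them at 12 and 18 h. POLD1 averaged 0.06 ± 0.06 in BEAS-2B and 0.16 ± 0.06 in HCT116 (adjusted p = 0.43 and 0.028), and the HCT116 call was lost when each line was fitted alone (adjusted p = 0.070, with 0.00037 to 0.33 over the 43 settings). PRIM1, the catalytic primase subunit, averaged -0.63 ± 0.05 in BEAS-2B and -0.39 ± 0.05 in HCT116. PRIM2, the large primase subunit, averaged -0.23 ± 0.16 and -0.16 ± 0.16 and passed in neither line; its probe was detected on 6 of 10 copper and 7 of 8 untreated BEAS-2B arrays.

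**Figure D2:**
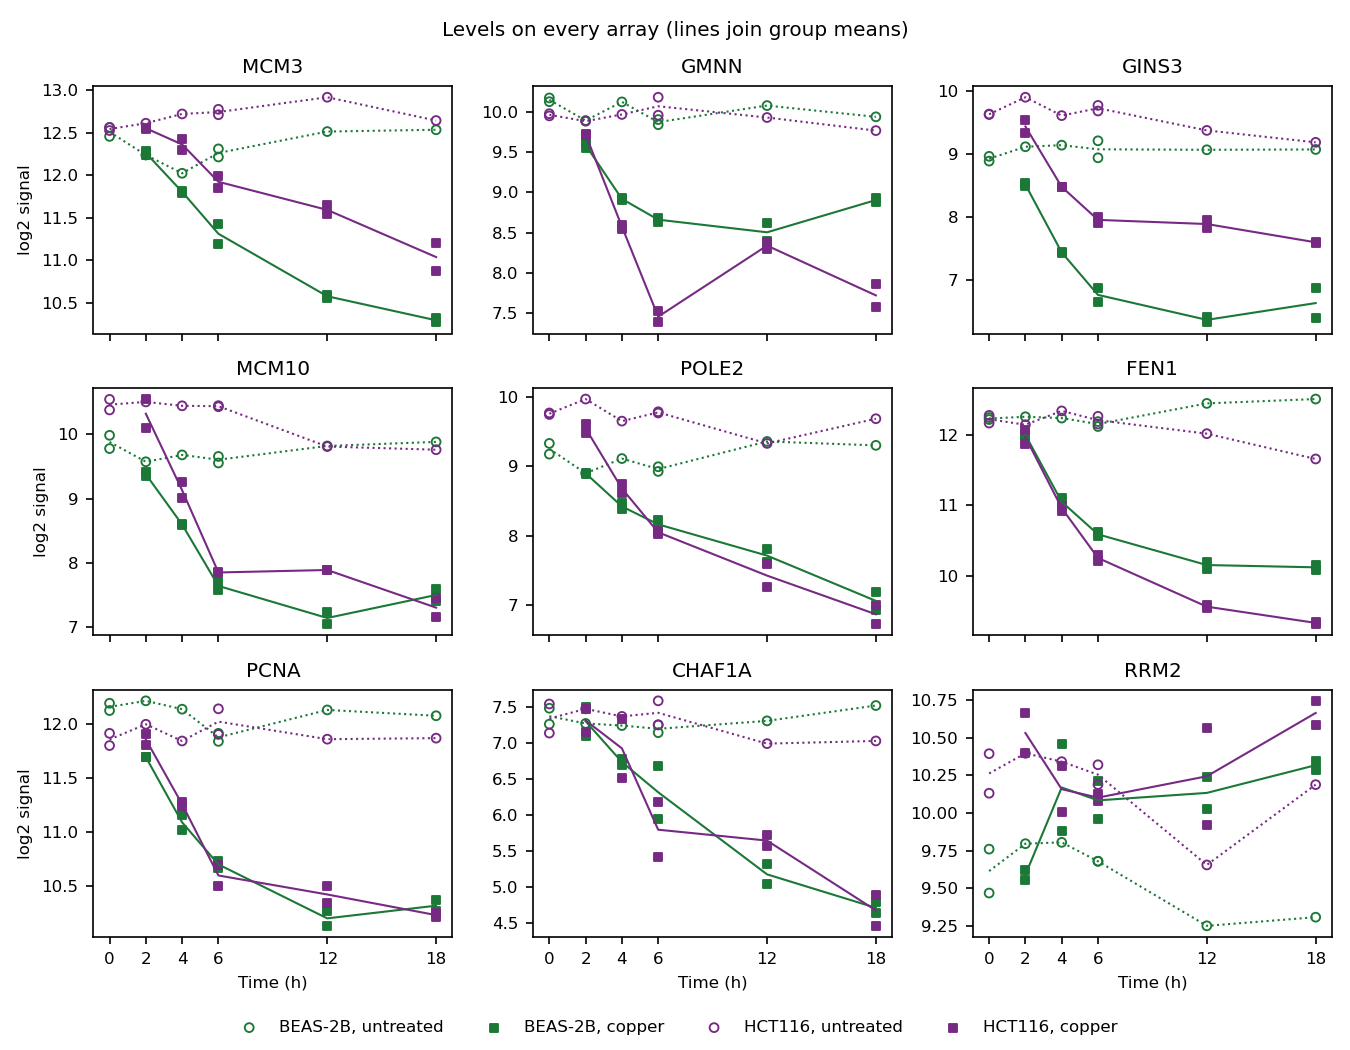
Log2 level on every array against time (h) for 9 of the genes in BEAS-2B (green) and HCT116 (purple), with filled squares for copper arrays, open circles for untreated arrays and lines joining the group means. Copper points of FEN1, GINS3, MCM10 and the other falling genes lie below the untreated arrays of their line by 6 h, while those of RRM2 lie above them in BEAS-2B from 4 h on.

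All 7 genes of the clamp, the clamp loader and strand joining had averages below 0 in both lines. Of these, 6 passed as lower in BEAS-2B (30.3% of all genes did) and 5 in HCT116 (29.1%). PCNA, the sliding clamp, and FEN1 moved most. PCNA in BEAS-2B lay between 11.84 and 12.21 on the 8 untreated arrays (median 12.13) and, in copper, at 11.69 and 11.70 at 2 h, 11.16 and 11.02 at 4 h, 10.73 and 10.67 at 6 h, 10.27 and 10.13 at 12 h and 10.37 and 10.27 at 18 h. PCNA in HCT116 lay between 11.80 and 12.14 on the 8 untreated arrays (median 11.89) and, in copper, at 11.80 and 11.91 at 2 h, 11.27 and 11.24 at 4 h, 10.50 and 10.70 at 6 h, 10.50 and 10.34 at 12 h and 10.25 and 10.21 at 18 h. BEAS-2B copper arrays were below all untreated arrays at every time, those of HCT116 from 4 h. PCNA averaged -1.29 ± 0.06 in BEAS-2B and -1.04 ± 0.06 in HCT116 (adjusted p = 2.9e-12 and 5.4e-11). FEN1 in BEAS-2B lay between 12.12 and 12.51 on the 8 untreated arrays (median 12.24) and, in copper, at 11.99 and 12.01 at 2 h, 11.00 and 11.11 at 4 h, 10.62 and 10.56 at 6 h, 10.11 and 10.20 at 12 h and 10.16 and 10.09 at 18 h. FEN1 in HCT116 lay between 11.66 and 12.34 on the 8 untreated arrays (median 12.16) and, in copper, at 12.07 and 11.87 at 2 h, 10.93 and 11.00 at 4 h, 10.21 and 10.30 at 6 h, 9.55 and 9.58 at 12 h and 9.32 and 9.35 at 18 h. FEN1 separated at the same times as PCNA and was lowest at 12 and 18 h in both lines. FEN1 averaged -1.54 ± 0.05 in BEAS-2B and -1.66 ± 0.05 in HCT116 (adjusted p = 3.3e-14 and 1.7e-14).

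RFC5, a subunit of the loader that opens PCNA, was below the untreated range at 2 h in both lines. By limma its 2 h difference was -0.59 in BEAS-2B (adjusted p = 0.032). In HCT116 it was -0.24 and did not pass (adjusted p = 0.70). RFC5 in BEAS-2B lay between 9.93 and 10.29 on the 8 untreated arrays (median 10.09) and, in copper, at 9.75 and 9.65 at 2 h, 9.48 and 9.50 at 4 h, 9.20 and 9.20 at 6 h, 8.50 and 8.41 at 12 h and 8.23 and 8.45 at 18 h. RFC5 in HCT116 lay between 11.13 and 11.47 on the 8 untreated arrays (median 11.21) and, in copper, at 10.97 and 10.91 at 2 h, 10.62 and 10.68 at 4 h, 10.45 and 10.43 at 6 h, 11.15 and 10.78 at 12 h and 10.69 and 10.72 at 18 h. It was below the untreated range at all 5 times in BEAS-2B and at all but 12 h in HCT116. RFC5 averaged -1.09 ± 0.06 in BEAS-2B and -0.55 ± 0.06 in HCT116 (adjusted p = 5.7e-11 and 5.5e-07). Of the other loader subunits, RFC4 averaged -0.77 ± 0.06 in BEAS-2B and -0.67 ± 0.06 in HCT116 and RFC3 -0.46 ± 0.07 and -0.46 ± 0.07. RFC2 was -0.40 ± 0.17 and -0.39 ± 0.17 and passed in neither (adjusted p = 0.061 and 0.071). LIG1, the ligase that seals Okazaki fragments, fell by 0.31 on the log2 scale in BEAS-2B and averaged -0.11 ± 0.08 in HCT116 (adjusted p = 0.27).

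The 3 subunits of RPA, which coats single-stranded DNA, were lower in both lines by close amounts. Of all genes, 20.3% were lower in both. RPA1 in BEAS-2B lay between 11.26 and 11.47 on the 8 untreated arrays (median 11.34) and, in copper, at 11.26 and 11.20 at 2 h, 10.95 and 10.97 at 4 h, 10.88 and 10.82 at 6 h, 10.50 and 10.63 at 12 h and 10.33 and 10.30 at 18 h. RPA1 in HCT116 lay between 11.26 and 11.63 on the 8 untreated arrays (median 11.47) and, in copper, at 11.23 and 11.27 at 2 h, 11.36 and 11.01 at 4 h, 10.79 and 10.83 at 6 h, 11.02 and 10.90 at 12 h and 10.67 and 10.56 at 18 h. The copper arrays were below all untreated ones at all times in BEAS-2B and from 6 h in HCT116. RPA1 averaged -0.57 ± 0.06 in BEAS-2B and -0.51 ± 0.06 in HCT116 (adjusted p = 1.7e-07 and 9.4e-07). RPA2 in BEAS-2B lay between 10.89 and 11.39 on the 8 untreated arrays (median 11.06) and, in copper, at 10.88 and 10.80 at 2 h, 10.46 and 10.62 at 4 h, 10.40 and 10.29 at 6 h, 10.63 and 10.62 at 12 h and 10.58 and 10.57 at 18 h. RPA2 in HCT116 lay between 11.05 and 11.52 on the 8 untreated arrays (median 11.42) and, in copper, at 11.38 and 11.05 at 2 h, 10.86 and 10.62 at 4 h, 10.46 and 10.35 at 6 h, 10.78 and 10.93 at 12 h and 10.71 and 10.83 at 18 h. In HCT116 its lowest copper arrays were those at 6 h. RPA2 averaged -0.56 ± 0.07 in BEAS-2B and -0.51 ± 0.07 in HCT116 (adjusted p = 2e-06 and 6.6e-06), and RPA3 -0.43 ± 0.05 in BEAS-2B and -0.41 ± 0.05 in HCT116 (adjusted p = 2.1e-06 and 5.3e-06).

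The nucleotide supply genes split. RRM1 and RRM2 encode the large and small subunits of ribonucleotide reductase, which makes deoxynucleotides, and they moved in opposite directions in BEAS-2B. RRM1 in BEAS-2B lay between 12.42 and 12.81 on the 8 untreated arrays (median 12.72) and, in copper, at 12.79 and 12.69 at 2 h, 12.42 and 12.67 at 4 h, 12.52 and 12.50 at 6 h, 11.69 and 11.68 at 12 h and 11.22 and 11.18 at 18 h. RRM1 in HCT116 lay between 11.78 and 12.09 on the 8 untreated arrays (median 11.92) and, in copper, at 12.00 and 11.95 at 2 h, 11.82 and 11.66 at 4 h, 11.65 and 11.70 at 6 h, 11.85 and 11.75 at 12 h and 11.54 and 11.28 at 18 h. BEAS-2B copper arrays left the untreated range at 12 and 18 h, and HCT116 arrays at 6 and 18 h. RRM1 averaged -0.51 ± 0.06 in BEAS-2B and -0.25 ± 0.06 in HCT116 (adjusted p = 6.9e-07 and 0.0018), and the HCT116 value was -0.14 against the 0 h arrays and did not pass (adjusted p = 0.26, with 0.00037 to 0.26 over the 43 settings). RRM2 in BEAS-2B lay between 9.25 and 9.81 on the 8 untreated arrays (median 9.68) and, in copper, at 9.62 and 9.56 at 2 h, 9.88 and 10.46 at 4 h, 9.96 and 10.21 at 6 h, 10.24 and 10.03 at 12 h and 10.29 and 10.35 at 18 h. RRM2 in HCT116 lay between 9.66 and 10.40 on the 8 untreated arrays (median 10.26) and, in copper, at 10.40 and 10.66 at 2 h, 10.01 and 10.31 at 4 h, 10.13 and 10.08 at 6 h, 10.57 and 9.92 at 12 h and 10.58 and 10.75 at 18 h. The BEAS-2B pairs were above all 8 untreated arrays from 4 h on, while those of HCT116 were above at 2 and 18 h and overlapped at the times between. The BEAS-2B untreated arrays at 12 and 18 h, at 9.25 and 9.31, were its lowest untreated values. RRM2 averaged 0.49 ± 0.11 in BEAS-2B and 0.17 ± 0.11 in HCT116 (adjusted p = 0.00082 and 0.21).

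TYMS, which makes thymidylate, fell in both lines. TYMS in BEAS-2B lay between 11.71 and 12.00 on the 8 untreated arrays (median 11.81) and, in copper, at 11.56 and 11.58 at 2 h, 11.24 and 11.64 at 4 h, 11.01 and 11.08 at 6 h, 11.00 and 10.90 at 12 h and 10.75 and 10.69 at 18 h. TYMS in HCT116 lay between 11.70 and 12.18 on the 8 untreated arrays (median 11.87) and, in copper, at 11.73 and 11.80 at 2 h, 11.31 and 11.60 at 4 h, 11.18 and 11.15 at 6 h, 11.13 and 11.20 at 12 h and 11.13 and 11.16 at 18 h. Its arrays were below all untreated ones at all times in BEAS-2B and from 4 h in HCT116. TYMS averaged -0.70 ± 0.07 in BEAS-2B and -0.60 ± 0.07 in HCT116 (adjusted p = 7e-08 and 5.5e-07). CHAF1A, the large subunit of the factor that places histones on new DNA, was first called lower at 6 h in both lines. CHAF1A in BEAS-2B lay between 7.14 and 7.52 on the 8 untreated arrays (median 7.26) and, in copper, at 7.50 and 7.10 at 2 h, 6.70 and 6.77 at 4 h, 6.69 and 5.95 at 6 h, 5.04 and 5.32 at 12 h and 4.79 and 4.64 at 18 h. CHAF1A in HCT116 lay between 6.99 and 7.58 on the 8 untreated arrays (median 7.31) and, in copper, at 7.15 and 7.46 at 2 h, 7.34 and 6.51 at 4 h, 6.18 and 5.42 at 6 h, 5.73 and 5.57 at 12 h and 4.90 and 4.47 at 18 h. It was below the untreated range from 4 h in BEAS-2B and from 6 h in HCT116, and 7 of 10 and 8 of 10 copper arrays detected it. CHAF1A averaged -1.26 ± 0.15 in BEAS-2B and -1.18 ± 0.15 in HCT116 (adjusted p = 1.4e-06 and 3.3e-06). At 18 h in BEAS-2B, where neither copper array detected it, it was at least 6.92-fold lower than the 1 untreated array of that time. That untreated array, at 7.52, was the highest of the 8, so the bound holds against that array alone.

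The fall spread over the genes with time. In BEAS-2B, 3 members were called lower at 2 h, where 0.824% of all genes were; they were GINS1, PCNA and RFC5, named after their values were seen, and 0 were called with either 2 h copper array left out. The number was 12 at 4 h (8.02% of all genes), 20 at 6 h (17.7%), 28 at 12 h (23%) and 33 at 18 h (27.7%). In HCT116, limma called 0 members lower at 2 h (0.136% of all genes), with 3 at an unadjusted p below 0.05. It called 12 at 4 h (5.43%), 26 at 6 h (18.5%), 21 at 12 h (22.4%) and 25 at 18 h (26.7%), and 7 at 4 h when HCT116 was fitted alone. The count went up at each later time in BEAS-2B and up to 6 h in HCT116. The 6 h comparison had 2 untreated arrays and the others 1, so its standard errors were smaller. For GMNN in HCT116 they were 0.11 at 6 h and 0.14 at 4, 12 and 18 h. A fall of the same size was thus easier to call at 6 h, which bears on these counts and on the first times called. Falls of over 2-fold that also passed the test numbered 5 at 4 h (2.33% of all genes), 6 at 6 h (4.87%), 21 at 12 h (12.2%) and 24 at 18 h (16.1%) in BEAS-2B. In HCT116 these numbered 4 at 4 h (2.18%), 10 at 6 h (6.85%), 12 at 12 h (12.7%) and 16 at 18 h (15.8%).

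Counted without a model, both copper arrays lay below all 8 untreated arrays of the line for 14 members at 2 h in BEAS-2B (13.1% of all genes), 21 at 4 h (20.2%), 23 at 6 h (23.3%), 31 at 12 h (29.9%) and 35 at 18 h (33.9%). The HCT116 numbers were 5 at 2 h (5.91%), 20 at 4 h (14.9%), 30 at 6 h (21%), 23 at 12 h (25.9%) and 27 at 18 h (29.6%). By the model, GMNN, MCM10, GINS2, GINS3, POLA2, POLE2, FEN1 and RPA2 were first called lower at 4 h in both lines. MCM2, MCM3, PRIM1, RPA1, TYMS and CHAF1A were first called at 6 h in both. In BEAS-2B, 8 members were first called at 12 h and 5 at 18 h, and in HCT116 0 and 1. The single-time calls upward were few. In BEAS-2B they were POLD1 at 6 h (13.4% of all genes were higher), RRM2 at 12 h (13.8%) and GINS4 and RRM2 at 18 h (15.5%). In HCT116 they were CDC6, GINS4 and POLD1 at 12 h (12.5%) and CDC6 and GINS4 at 18 h (15.4%).

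**Figure D3:**
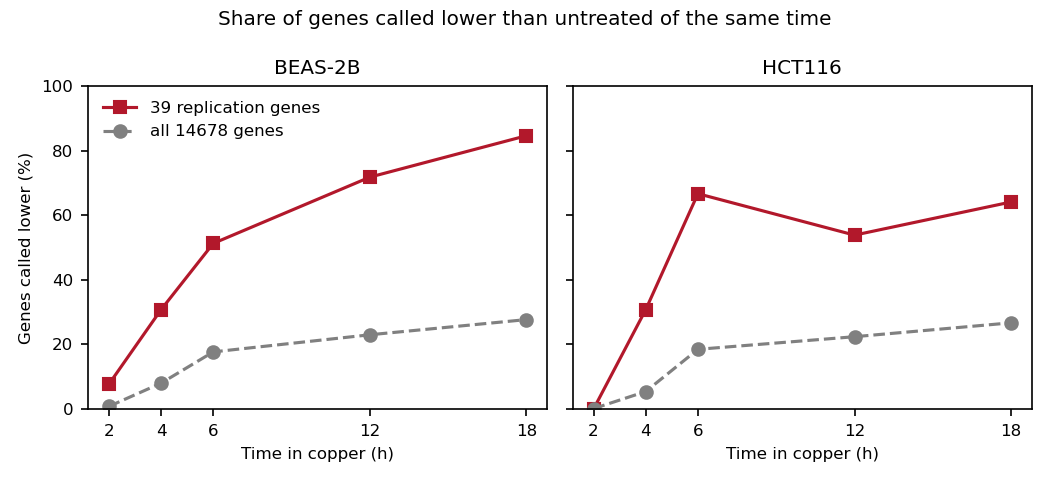
Percent of the 39 replication genes and of all 14678 genes called lower than untreated arrays of the same time (limma, adjusted p below 0.05), against time in copper (h). The replication genes are above all genes from 4 h on in both lines, with 33 of 39 called lower at 18 h in BEAS-2B and the highest HCT116 count, 26, at 6 h.

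Late effects were set against early ones by subtracting the mean copper effect at 2 and 4 h from that at 12 and 18 h. In BEAS-2B, 30 members were lower late than early (21.3% of all genes were) and 2, GINS4 and RRM2, were higher (12%), with a median difference of -0.89. In HCT116, 18 were lower (21.2%) and 3, CDC6, GINS4 and POLD1, were higher (11.7%), with a median of -0.39. MCM3 had the smallest adjusted p of these in BEAS-2B, at -1.99 ± 0.14 (adjusted p = 9.4e-09), and FEN1 in HCT116, at -1.61 ± 0.12 (adjusted p = 1.6e-08). GINS4 went up by 0.74 ± 0.20 in BEAS-2B (adjusted p = 0.0078) and by 1.19 ± 0.20 in HCT116 (adjusted p = 0.00016). The HCT116 median ranged from -0.62 to -0.33 as single arrays were left out; -0.62 was without replicate 1 of the 12 h copper arrays.

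Some of the genes differed between the lines in how far they fell, at a share close to that of all genes. The difference of the 2 averages, HCT116 minus BEAS-2B, was called for 12 of the 39 (26.4% of all genes were called in either direction). For 10 it was above 0, so the average was lower in BEAS-2B, and for GMNN and POLE2 it was below 0. The values were 0.66 ± 0.10 for GINS3, 0.54 ± 0.09 for RFC5, 0.42 ± 0.09 for MCM4 and 0.39 ± 0.09 for MCM5. Those for GMNN and POLE2 were -0.50 ± 0.08 and -0.49 ± 0.10; adjusted p over these 6 genes ran from 9.7e-05 (GINS3) to 0.0023 (MCM4). The other called members were ORC1, GINS2, PRIM1, RRM1, CDC45 and PCNA. RFC5 and POLE2 kept their calls under all 42 alternatives. The count of 12 was 6 without the 12 h arrays, where ORC1, MCM4, CDC45, PRIM1, PCNA and RRM1 lost their calls, and 6 without the 18 h arrays, where ORC1, MCM5, CDC45, GINS2, PRIM1 and RRM1 did. The replicate block lost ORC1, CDC45, PRIM1 and PCNA, the 0 h reference ORC1, MCM4, MCM5 and GINS3, and the fit without the 6 h arrays GMNN and CDC45. As single arrays were left out, PCNA lost its call in 12 of 28 fits and ORC1 in 10 of 28.

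The lines were also compared at the late and early times apart, a choice made after the values were seen. At 12 and 18 h the copper effects of 20 members differed between the lines (29.5% of all genes did): 19 were higher in HCT116 and 1, GMNN, was lower. RFC5 differed by 1.14 ± 0.14 (adjusted p = 8.1e-06), MCM5 by 1.06 ± 0.14 (adjusted p = 1.5e-05) and RRM1 by 0.92 ± 0.14 (adjusted p = 5.6e-05). CDC6 differed by 1.19 ± 0.23 (adjusted p = 0.00065), being above 0 in HCT116 and below it in BEAS-2B. At 2 and 4 h limma called 0 of 39 (2.15% of all genes), with 4 at an unadjusted p below 0.05. FEN1, by contrast, differed by -0.05 at 12 and 18 h, with a 95% interval from -0.30 to 0.20, and TYMS by 0.08, from -0.24 to 0.41. Over the 39 members the late effects of the lines had a Pearson correlation of 0.847, a description over genes of the same arrays.

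**Figure D4:**
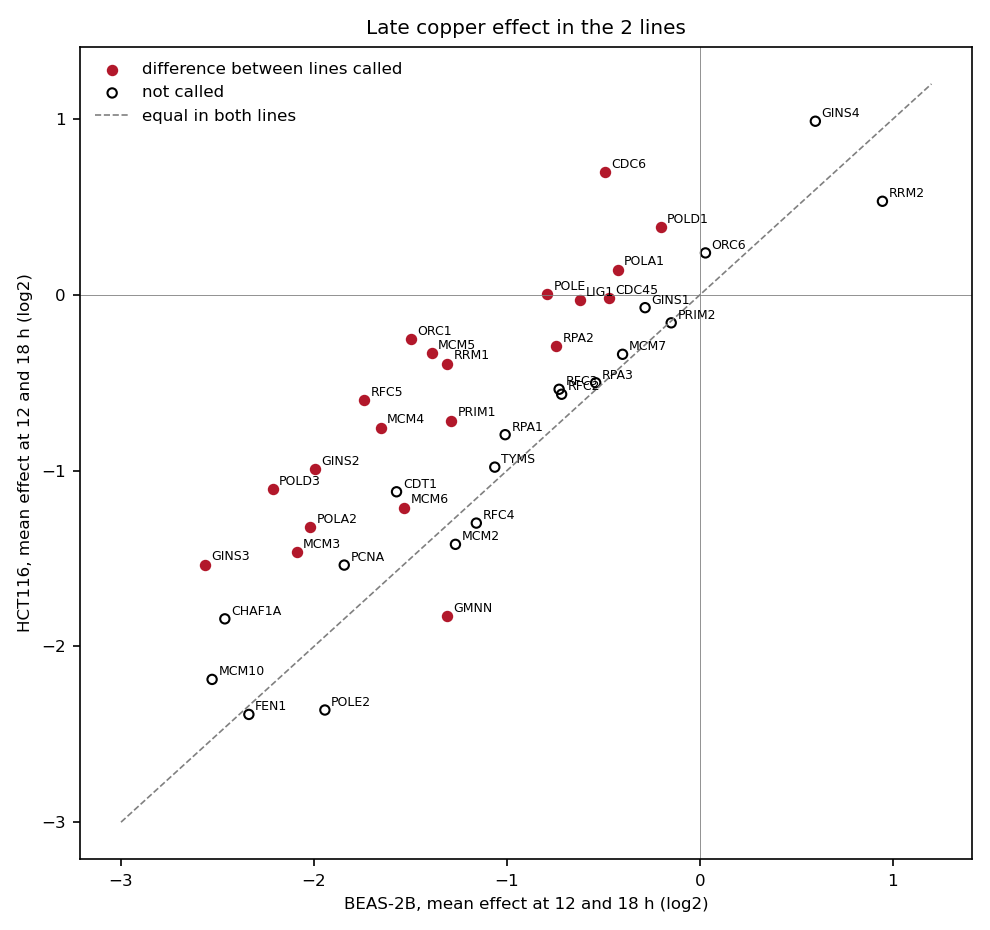
Mean copper effect at 12 and 18 h (log2) in HCT116 against that in BEAS-2B, 1 point per replication gene, with filled red points for the 20 genes whose late effects differed between the lines and a dashed diagonal of equal effects. Most filled points, RFC5, MCM5 and RRM1 among them, lie above the diagonal, and GMNN lies below it.

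Untreated arrays at 12 and 18 h were compared with those at 0, 2, 4 and 6 h. In BEAS-2B, 3 members were higher late (1.45% of all genes were): MCM4 by 0.45 ± 0.10 (adjusted p = 0.019), MCM2 by 0.51 ± 0.13 (adjusted p = 0.033) and RPA3 by 0.32 ± 0.09 (adjusted p = 0.049). FEN1, next by adjusted p, was at 0.26 ± 0.08 (adjusted p = 0.098). There limma called 0 lower (1.91% of all genes), with 2 at an unadjusted p below 0.05. In HCT116, 7 were higher (7.96%) and 4 lower (7.2%). POLA2 rose by 0.84 ± 0.12 (adjusted p = 0.00011), PRIM1 by 0.61 ± 0.08 (adjusted p = 4.1e-05) and CDC45 by 0.61 ± 0.08 (adjusted p = 4.9e-05), and MCM10 fell by 0.68 ± 0.12 (adjusted p = 0.00085). The late untreated level of each line is 1 array at 12 h and 1 at 18 h. These shifts are part of the copper comparisons, which used untreated arrays of the same time.

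**Figure D5:**
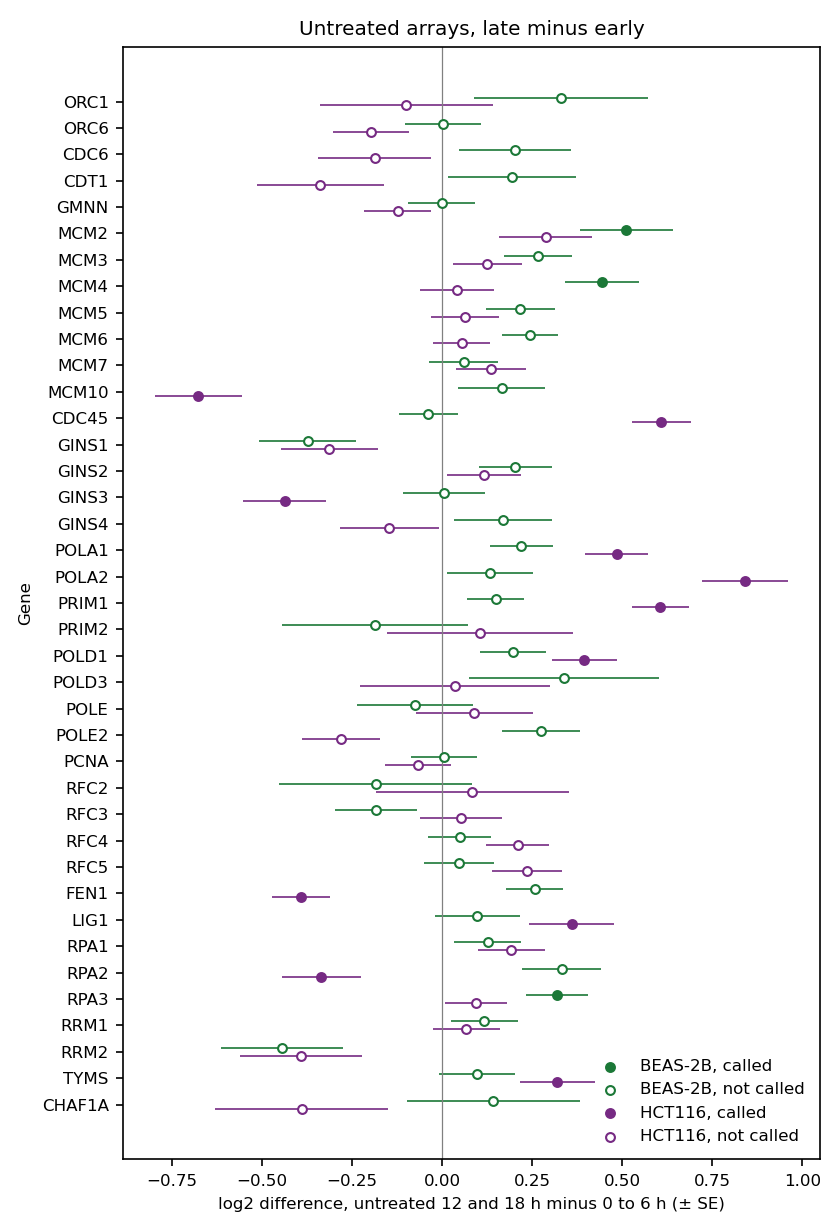
Log2 difference of untreated arrays at 12 and 18 h from those at 0 to 6 h, with its standard error, for each of the 39 genes in BEAS-2B and HCT116; filled points passed the test. The 3 filled BEAS-2B points are MCM2, MCM4 and RPA3, and the HCT116 points run from -0.68 for MCM10 to 0.84 for POLA2.

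Untreated levels of the lines also differed, with 19 members higher in HCT116 (29.8% of all genes) and 15 lower (29.7%), so the 39 genes were not shifted to 1 side. CDT1 differed by 2.46 ± 0.11 (adjusted p = 5.9e-13), GINS2 by 1.43 ± 0.06 (adjusted p = 5e-13), RFC5 by 1.17 ± 0.06 (adjusted p = 4.7e-12) and POLA2 by -1.68 ± 0.08 (adjusted p = 5.7e-13), as HCT116 minus BEAS-2B. These are differences within 1 probe, and levels of different genes were not compared.

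A wider list of 44 other replication genes, 42 of them measured, was read beside the 39. In BEAS-2B, 31 were lower (30.3% of all genes were), 2 were higher (18.5%) and 9 did not pass, with a median of -0.45. In HCT116, 24 were lower (29.1% of all genes were), 3 were higher (17.3%) and 15 did not pass, with a median of -0.34. CHAF1B, the partner of CHAF1A, averaged -0.98 ± 0.07 in BEAS-2B and -0.75 ± 0.07 in HCT116, and the histone chaperone ASF1B -1.16 ± 0.09 and -1.26 ± 0.09. UHRF1, which recruits the maintenance DNA methyltransferase, averaged -0.94 ± 0.07 in BEAS-2B and -0.62 ± 0.07 in HCT116. CDC7, the kinase that fires origins, averaged -1.21 ± 0.10 and -1.36 ± 0.10, and ORC5, an origin recognition subunit, -1.04 ± 0.10 and -0.96 ± 0.10. TOP1, which relaxes DNA ahead of the fork, was higher by 1.42 ± 0.10 in BEAS-2B and by 0.72 ± 0.10 in HCT116, MCM8, a helicase of DNA repair, by 0.44 ± 0.07 and 0.57 ± 0.07, and RRM2B, the small reductase subunit of the p53 response, by 0.58 ± 0.13 in HCT116, while its BEAS-2B value of 0.21 ± 0.13 did not pass.

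Of 32 mitosis genes, 31 were lower in each line, with medians of -0.75 in BEAS-2B and -0.58 in HCT116. Of all genes, 30.3% were lower in BEAS-2B and 29.1% in HCT116. TOP2A averaged -1.94 ± 0.08 in BEAS-2B and -0.89 ± 0.08 in HCT116, CENPA -1.04 ± 0.06 and -1.04 ± 0.06, CCNA2 -0.91 ± 0.08 and -1.44 ± 0.08, and AURKA -1.26 ± 0.08 and -1.41 ± 0.08. Of 23 measured genes that control entry into S phase, 11 were lower and 4 higher in BEAS-2B, with a median of -0.17. In HCT116, 15 were lower and 2 higher, with a median of -0.41. The shares of all genes called higher were 18.5% in BEAS-2B and 17.3% in HCT116. E2F2, an activator of replication genes, averaged -2.37 ± 0.08 in BEAS-2B and -1.61 ± 0.08 in HCT116. The other E2F genes were mixed. E2F3 was called higher in BEAS-2B, at 0.44 ± 0.08, and was not called in HCT116, at 0.05 ± 0.08. E2F1 passed in neither line, at 0.17 ± 0.23 and 0.50 ± 0.23. E2F6 was called higher in both, at 0.34 ± 0.07 and 0.47 ± 0.07. E2F4, E2F5 and E2F8 were called lower in both, and E2F7 in HCT116 alone. The inhibitor of cyclin-dependent kinases CDKN1A averaged 1.63 ± 0.06 in BEAS-2B and 0.53 ± 0.06 in HCT116, both called higher, and the related CDKN1B -1.16 ± 0.10 and -2.04 ± 0.10, both called lower.

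The array held 56 probes for the 39 genes; 25 genes had 1 probe and 14 had several. For 3 of the 14, the probes of 1 gene had averages of opposite sign in a line. MCM7 averaged -0.26 in HCT116 by the probe used and 0.14 and 0.10 by its 2 others, and with the mean of its probes it was -0.0038 and lost its call. RFC2 averaged -0.39 in HCT116 by the probe used and 0.29 by the other. The second RFC5 probe averaged 0.05 in HCT116 but was detected on 2 of 36 arrays, against 36 of 36 for the one used.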

How the data were processed

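The authors deposited 1 table of the 36 arrays that holds, for each of 43960 probes, a log2 signal and a detection p-value per array, per the file headers; the submitters' processing notes name BeadStudio. The deposited log2 values were turned back to a linear scale, background-corrected with limma's neqc (version 3.58.1 in R 4.3.3), which took the background from the detection p-values, with an offset of 16, and then quantile-normalised and set on the log2 scale. Probes detected at p below 0.01 on at least 2 arrays were kept, 13 probes with missing values were left out, and each gene took its probe with the highest mean, which left 14678 genes named through GEO's platform annotation. 1 limma model with 22 groups of line, treatment and time (14 residual degrees of freedom, prior degrees of freedom 3.44) gave moderated two-sided tests with Benjamini-Hochberg adjustment over all genes. A group with a single array was assumed to vary like the other groups. The number of arrays limits the precision.

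Samples were grouped by their titles. The members, the other lists and the tests were chosen with earlier results of these data known. Values on every array are printed for 21 genes: per role, the 2 members with the largest mean of the lines' averages, every member called higher in either line, and up to 6 with the smallest adjusted p for the line difference. For the untreated comparisons the 4 members with the smallest adjusted p are given, and for the other replication genes up to 4 per line with every riser. Replicate numbers do not pair the arrays: the median correlation of replicate differences between groups was 0.0018 in BEAS-2B and -0.00054 in HCT116 over 21 pairs of groups each. Promoter sequences are RefSeq's, from GRCh38.p14; probe positions were not used. Alternatives tried were the authors' quantile-normalised values, other background, filter, probe, reference and time choices, separate fits per line, replicate blocks and leaving out single arrays.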

Additional observations from a re-analysis of the deposited data

Results flagged for a closer look

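The copper averages of 12 members differed between the lines by the interaction test of the limma model, where 26.4% of all genes did. The share of members was close to that of all genes. As HCT116 minus BEAS-2B on the log2 scale, the difference was 0.64 for ORC1, 0.42 for MCM4, 0.39 for MCM5, 0.41 for GINS2, 0.66 for GINS3, 0.24 for PRIM1, 0.54 for RFC5, 0.27 for RRM1, 0.22 for CDC45 and 0.24 for PCNA. It was -0.50 for GMNN and -0.49 for POLE2, the 2 members whose average was lower in HCT116. Adjusted p ran from 9.7e-05 for GINS3 to 0.039 for PCNA. Only RFC5 and POLE2 kept their calls under all 42 alternatives.

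At 12 and 18 h the copper effects of 20 members differed between the lines by the same kind of test, where 29.5% of all genes did. This comparison was chosen after the values were seen. The difference was 1.25 for ORC1, 1.19 for CDC6, 0.62 for MCM3, 0.90 for MCM4, 1.06 for MCM5, 0.32 for MCM6, 0.45 for CDC45, 1.00 for GINS2, 1.03 for GINS3 and 0.57 for POLA1. It was 0.70 for POLA2, 0.57 for PRIM1, 0.59 for POLD1, 1.11 for POLD3, 0.80 for POLE, 1.14 for RFC5, 0.59 for LIG1, 0.45 for RPA2 and 0.92 for RRM1. For GMNN alone among the 20 it was below 0, at -0.52. Adjusted p ran from 8.1e-06 for RFC5 to 0.045 for MCM6. All members with a called difference of averages but POLE2 and PCNA were among these 20. The averages include the same 12 and 18 h arrays, so this overlap is partly built in.

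The copper effect itself differed between late times (12 and 18 h) and early times (2 and 4 h) for 32 members in BEAS-2B and 21 in HCT116. Of all 14678 genes, 4897 differed in BEAS-2B (21.3% lower late and 12% higher) and 4837 in HCT116 (21.2% and 11.7%). Groups of 1 or 2 arrays are too small for a test of single outlying arrays, so none was made. Dose and line changed together, so these differences between the lines cannot be assigned to either.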

How the results depend on the processing

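Of 3856 values of members under 43 settings, 3669 kept their direction and their side of the threshold, 122 lost a call, 49 gained one and 16 changed sign. The members called lower on average stayed between 28 and 32 in BEAS-2B and between 24 and 27 in HCT116 under every setting run. In BEAS-2B the 1 riser became 2 with the authors' values, no background correction, an offset of 50, the strict filter, the mean of a gene's probes, a separate fit for each line, all untreated or the 0 h arrays as reference, and without the 2 h or the 18 h arrays. In HCT116 the 4 risers became 0 with a separate fit, 2 with the replicate block, 2 without the 4 h arrays and 1 without the 12 h or the 18 h arrays. The 3 members called at 2 h in BEAS-2B became 1 with the mean of probes, the separate fit or the replicate block, and the 12 called at 4 h in HCT116 became 7 with the separate fit. The 12 differences between the lines' averages became 6 without the 12 h or the 18 h arrays, and 8 with the replicate block; the block changed no other count of members by over 1.5 times. The cause of these changes was not tested.

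As single arrays were left out, risers ranged from 1 to 2 in BEAS-2B, those of HCT116 from 1 to 4 (1 without replicate 1 of the HCT116 copper arrays at 2 h or at 4 h), members called at 2 h in BEAS-2B from 0 to 3, and the HCT116 late minus early median from -0.62 to -0.33. Untreated groups of 1 array could not be left out. Where a pair lost 1 array, the lone one was assumed to vary like the other groups.

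Of the averages that changed sign, that of GINS4 in HCT116 was the 1 that had been called. Against the 0 h arrays it was -0.074, and CDC6 was 0.13 and PRIM2 0.097 in BEAS-2B and CDC45 0.25 (called higher) and PRIM2 0.016 in HCT116. CDC45 in HCT116 was also 0.036 against all untreated arrays, 0.0047 without the 4 h arrays, 0.049 without the 18 h arrays and between -0.018 and 0.0041 as single arrays were left out. Without the 2 h arrays GINS1 was 0.0015 and PRIM2 0.021 in HCT116. POLD1 in BEAS-2B was -0.085 without the 6 h arrays, POLA1 in BEAS-2B was 0.013 without the 12 h and 0.085 without the 18 h arrays, and CDC6 in HCT116 was -0.044 and -0.090 without them. Over all genes, those called between late and early untreated BEAS-2B arrays numbered 494, but 742 without background correction and 764 with an offset of 50, and those called between the lines' averages 3873, but 2455 against the 0 h arrays and 2556 without the 18 h arrays. Signals near background limit GINS1, PRIM2, POLD3 and CHAF1A.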
